A study of Homo sapiens with 7 samples.

Results

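Heart muscle cells sorted on day 14 of a human embryonic stem cell (hESC) differentiation were compared with the undifferentiated hESC from which such cultures start. The comparison takes the 2 libraries at the ends of the series, the day 14 aMHC+ fraction and day 0 hESC, out of 7 libraries in all. The line is labelled H3 hESC and holds a pair of reporters, eGFP for NKX2-5, which encodes an early cardiac transcription factor, and mCherry for alpha-MHC (aMHC), the product of the myosin gene MYH6. The day 14 aMHC+ fraction is labelled CD13+/ROR2+/NKX2.5+/aMHC+ and described as cardiomyocytes, so its cells were chosen by the activity of both reporters and by 2 surface proteins of cardiac mesoderm. The labels do not say on which day the surface gate was applied. The hESC group was taken on day 0, before differentiation, from cells labelled as carrying the same reporters. The number after NKX2 in the cell line label counts upward from sample to sample, and all were treated as 1 line. The other 5 libraries (day 3 CD13+/ROR2+ and CD13-/ROR2-, day 7 NKX2-5+ and NKX2-5-, day 14 aMHC-) are used for levels between and beside these ends.

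Each group is 1 library, so no difference given here has a replicate check, and no statistical test was possible. Levels are in FPKM, in which fragment numbers are divided by gene length and library size, as the authors deposited them. A gene was called higher or lower where (FPKM + 1) differed at least 4-fold, which is 2 on the log2 scale, and the higher of the pair reached 5 FPKM. Small RNA and histone symbols were left out. Of 21579 remaining genes, 6279 reached 5 FPKM in day 14 aMHC+ or hESC. The day 14 aMHC+ library was estimated to be about 2.03 times as deep as the hESC library. The estimate is the most frequent quotient of low FPKM values, held by 27 of 1610 genes. It assumes equal read numbers for such genes in both libraries and was not checked. The labels state more than 12 M reads (M, mega) per sample, the depth of each library is not given, and levels below about 1 FPKM rest on few reads. A listed 0 can be a failed estimate. HNRNPC, an abundant RNA-binding protein gene, was listed at 0 in day 14 aMHC+ against 79.4 FPKM in hESC, and HNRNPD was at 69.4 FPKM in day 14 aMHC+ and listed at 0 in hESC. No fold is therefore given against a 0.

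Pluripotent stem cells divide fast and hold a network of transcription factors, with POU5F1 and NANOG at its core, that keeps lineage genes off. Heart muscle cells build sarcomeres, the repeating units in which myosin thick filaments pull on actin thin filaments anchored at Z-discs, and release calcium from the sarcoplasmic reticulum to trigger each contraction. Early heart muscle cells still divide and use fetal forms of several contractile proteins. They depend largely on glycolysis before they turn to fatty acids.

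The marker genes fitted the labels. MYL7, the atrial regulatory myosin light chain that all early human heart muscle expresses, was at 3082 FPKM in day 14 aMHC+ and listed at 0 in hESC. TNNT2, cardiac troponin T, was at 1133 FPKM against 0.280. POU5F1 was at 0.181 FPKM in day 14 aMHC+ against 154 in hESC. L1TD1, an RNA-binding protein gene of pluripotent cells derived from a transposon, was at 0.105 FPKM against 152. MYH6, whose promoter drives the sorted reporter, was at 342 FPKM against 0.0169, and NKX2-5 was at 63.2 FPKM and listed at 0 in hESC. ANPEP, which encodes CD13, was at 0.0152 FPKM against 0.330, and ROR2 was at 3.74 against 1.12, so the transcripts of the surface gate were low at both ends.

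The start regions of 5 genes from the ends of the comparison are shown next, since genes of the contractile lists are known to share control by serum response factor (SRF), which binds the CArG box, and NANOG by the octamer factor POU5F1. They are the 150 bases before the annotated start in RefSeq (GRCh38.p14, 5′ to 3′ on the gene's strand). The levels were mapped to another build, hg19. Capitals mark TATAAA on the gene's strand, and on either strand CATTCC (the M-CAT motif), ATGCAAA (octamer) and the CArG box; AGATAA and the MEF2 site were searched as well and have no match in these stretches. No marked motifs overlap.
MYL7 (chr7:44141333-44141482, minus strand): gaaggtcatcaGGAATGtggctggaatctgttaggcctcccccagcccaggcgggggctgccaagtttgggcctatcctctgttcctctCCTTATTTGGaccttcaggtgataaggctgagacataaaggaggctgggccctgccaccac
ACTC1 (chr15:34795550-34795699, minus strand): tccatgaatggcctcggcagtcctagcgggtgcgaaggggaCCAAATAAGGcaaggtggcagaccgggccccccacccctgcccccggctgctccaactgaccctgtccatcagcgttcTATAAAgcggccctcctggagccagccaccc
ACTA1 (chr1:229434095-229434244, minus strand): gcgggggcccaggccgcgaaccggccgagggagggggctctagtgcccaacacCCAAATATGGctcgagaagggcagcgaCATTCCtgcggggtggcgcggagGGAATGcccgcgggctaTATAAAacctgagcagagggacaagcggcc
NPPA (chr1:11847784-11847933, minus strand): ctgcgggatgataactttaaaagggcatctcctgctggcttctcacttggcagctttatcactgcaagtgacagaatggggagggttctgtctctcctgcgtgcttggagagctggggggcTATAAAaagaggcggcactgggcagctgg
NANOG (chr12:7789252-7789401, plus strand): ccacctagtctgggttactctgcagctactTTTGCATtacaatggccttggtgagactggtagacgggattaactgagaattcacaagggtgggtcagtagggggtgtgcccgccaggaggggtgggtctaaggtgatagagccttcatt

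The CArG box begins 61 bases before the start in MYL7, 109 in ACTC1 and 97 in ACTA1. TATAAA begins 31, 30 and 29 bases before the start in ACTC1, ACTA1 and NPPA, in that order. In NANOG the octamer begins 120 bases before it. Over whole windows of 300 bases (250 before and 50 after the start), 5 of 26 contractile genes called higher held a CArG box (19.2%), against 1.34% of 5141 windows of genes of at least 5 FPKM and 1.29% of all 27305 RefSeq windows. The MEF2 site, bound by the muscle factors of that name, was in 7 of these 26 (26.9%), in 1.38% of the 5141 and in 3.09% of all. Over the whole contractile lists, called or not, 7 of 40 windows held a CArG box (17.5%) and 22.5% a MEF2 site. Over all genes called higher and lower, the CArG box was in 4.26% and 1.02% of windows and the MEF2 site in 5.51% and 0.339%. CATTCC was in 34.6% of the contractile genes called higher, 32.5% of the whole contractile lists, 11.0% of the 5141 and 14.0% of all windows. Over all genes called higher and lower, CATTCC was in 14.5% and 11.9% of windows. AGATAA, which factors of the GATA4 family bind, was in 23.1% of the contractile genes called higher and 27.5% of the whole contractile lists. It was in 21.4% of 14 windows of the pluripotency list, 4.30% of the 5141 and 10.5% of all windows. Among all genes called higher and lower, AGATAA was in 8.27% and 4.75% of windows. Over all genes called higher (399 of 520 had a window), TATAAA was in 10.8%. It was in 4.41% of the 295 windows of genes called lower, 3.56% of the 5141 and 7.71% of all windows. ATGCAAA was in 4.26% of windows of genes called higher, 4.07% of those called lower, 2.49% of the 5141 and 4.51% of all. A match is a string of letters in this window and no measure of binding.

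In all, 520 of 6279 genes were called higher (8.28%) and 385 lower (6.13%) in day 14 aMHC+ than in hESC. The list counts below are to be read beside these shares. They are over all members of a list, also those under 5 FPKM in both libraries, which cannot be called. The median log2 ratio of the 6279 genes was 0.02, and 3753 of them (59.8%) differed less than 2-fold. Of the called genes, 69 of those higher were listed at 0 in hESC and 22 of those lower were listed at 0 in day 14 aMHC+. At the edge of the size rule, RGS3 was just inside (8.77 against 1.44 FPKM, log2 ratio 2.001) and the replication gene MCM6 just outside (3.87 against 18.4, log2 ratio -1.998). Differences of at least 16-fold, a log2 ratio of 4, were found for 101 genes higher and 43 lower. With each library brought to the same FPKM sum, the scale of day 14 aMHC+ relative to hESC shifts by -0.21 in log2, and the counts become 431 higher and 438 lower.

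**Figure D1:**
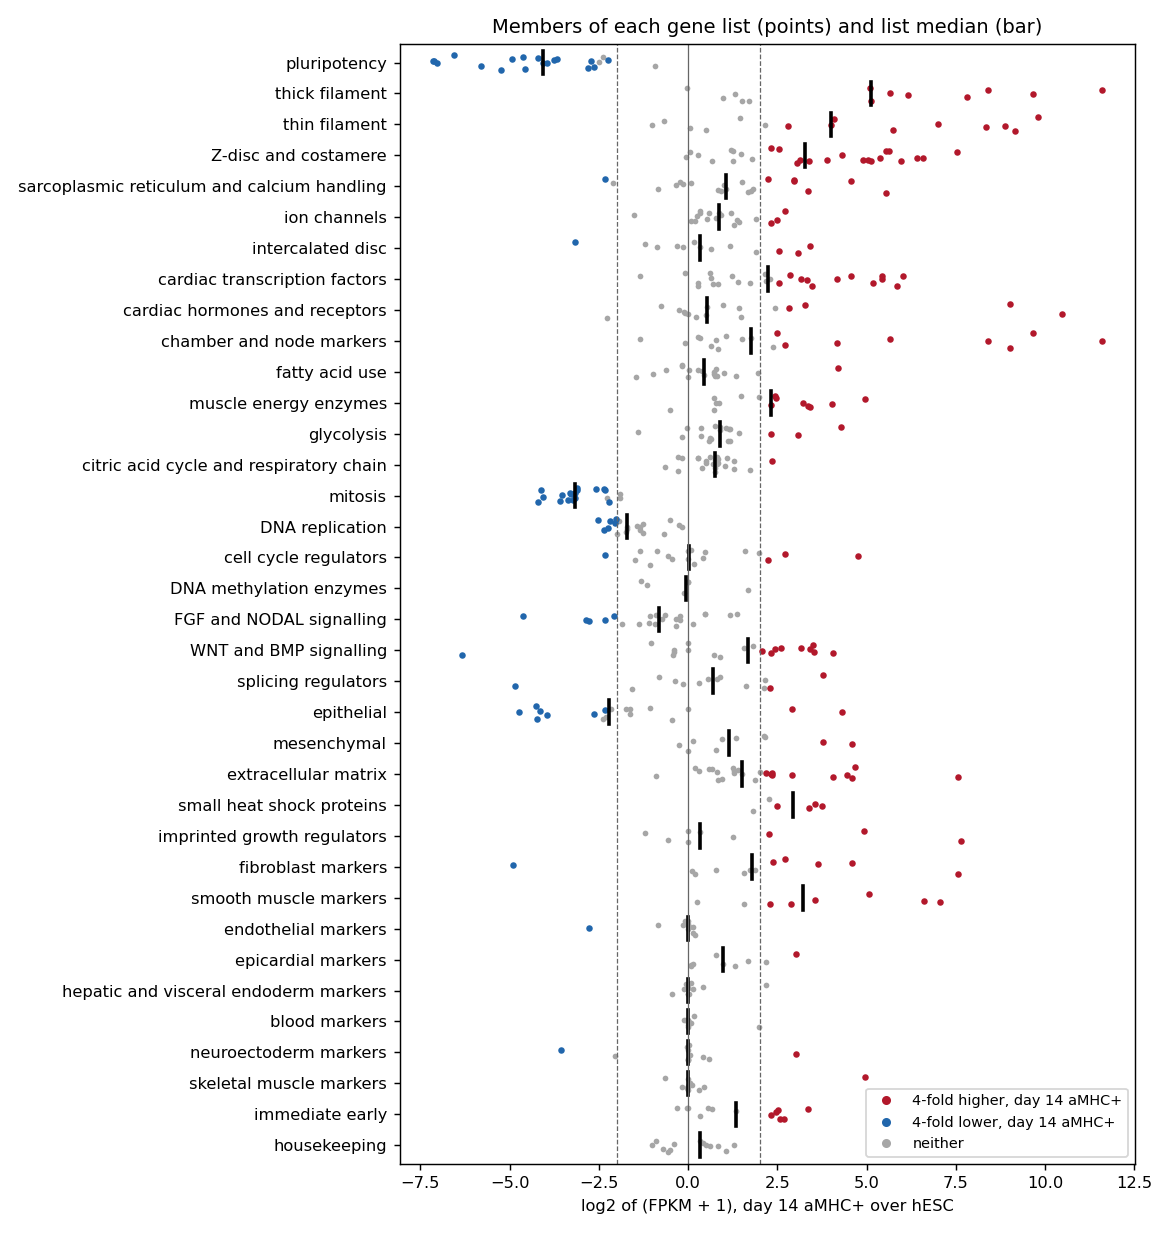
Log2 ratio of (FPKM + 1), day 14 aMHC+ over hESC, for the members of 36 gene lists, with 1 point per gene, the list median as a black bar and the 4-fold size rule as dashed lines. Contractile lists lie to the right, with medians from 3.26 to 5.13, and the pluripotency and mitosis lists to the left, at -4.06 and -3.16.

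Contractile genes made the largest block. Of 54 genes on the thick filament, thin filament and Z-disc lists, 34 were called higher and 0 lower, with a median log2 ratio of 3.95. Together they held 6.62% of the FPKM sum of day 14 aMHC+ and 0.264% of that of hESC. Among the 20 genes with the highest FPKM in day 14 aMHC+ were MYL7, TPM1, TNNT2 and the natriuretic peptide gene NPPB. Ribosomal protein genes took 11 of these 20 places in day 14 aMHC+ and 16 of 20 in hESC.

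Thick filament genes came first by size. Of 13, 8 were called higher (median 5.13). The essential light chains MYL4 (atrial and fetal) and MYL3 (ventricular) were at 808 and 222 FPKM in day 14 aMHC+ and both listed at 0 in hESC. Titin (TTN), the spring that spans the sarcomere from Z-disc to M-band, was at 116 FPKM against 0.635. MYH7, beta-MHC of ventricle and slow muscle, was at 50.5 FPKM against 0.0163. MYOM1, which links myosin at the M-band, was at 38.2 FPKM against 0.115, and MYBPC3, cardiac myosin binding protein C, was at 33.3 and listed at 0 in hESC. The 5 members not called were low in both libraries, among them MYL2, the ventricular regulatory light chain, at 1.83 FPKM in day 14 aMHC+ and listed at 0 in hESC, and MYOM2 at 1.48 FPKM.

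On the thin filament list 9 of 15 genes were called higher (median 4.01). ACTC1 (cardiac actin) was at 902 FPKM against 0.926, and ACTA1 (skeletal actin, also made by heart) at 570 and listed at 0 in hESC. TNNC1, the calcium-binding troponin of heart and slow muscle, was at 626 FPKM against 0.921. TNNI1, the fetal and slow inhibitory troponin, was at 132 FPKM against 0.0457. Tropomyosins were already present in hESC. TPM1 was at 3075 FPKM in day 14 aMHC+ against 56.8 in hESC (54.1-fold) and TPM2 at 296 against 42.0 (7.05-fold), while TPM3 (73.1 against 116) and TPM4 (168 against 119) were called neither way. Reads of the actin genes and of MYH6 and MYH7 can be shared between copies, so the split between such genes is uncertain.

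Z-disc and costamere genes, which anchor thin filaments and tie them to the membrane, were called higher in 17 of 26 cases (median 3.26). ANKRD1, a stress-responsive titin partner, was at 184 FPKM and CRYAB, a chaperone of desmin, at 95.0, both listed at 0 in hESC. HSPB7, a heart chaperone of actin filaments, was at 91.4 FPKM against 0.0816, and SYNPO2L at 66.9 against 0.0856. CSRP3 and SMPX, at 45.1 and 48.0 FPKM, were likewise without a value above 0 in hESC. Alpha-actinin 2 (ACTN2), the cross-linker of the muscle Z-disc, was at 38.0025 FPKM against 0.180. Vinculin (VCL), which also serves focal adhesions of other cells, was alike, at 42.3 against 43.8 FPKM. The genes of 3 sarcoglycans were below 1.5 FPKM in both libraries.

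**Figure D2:**
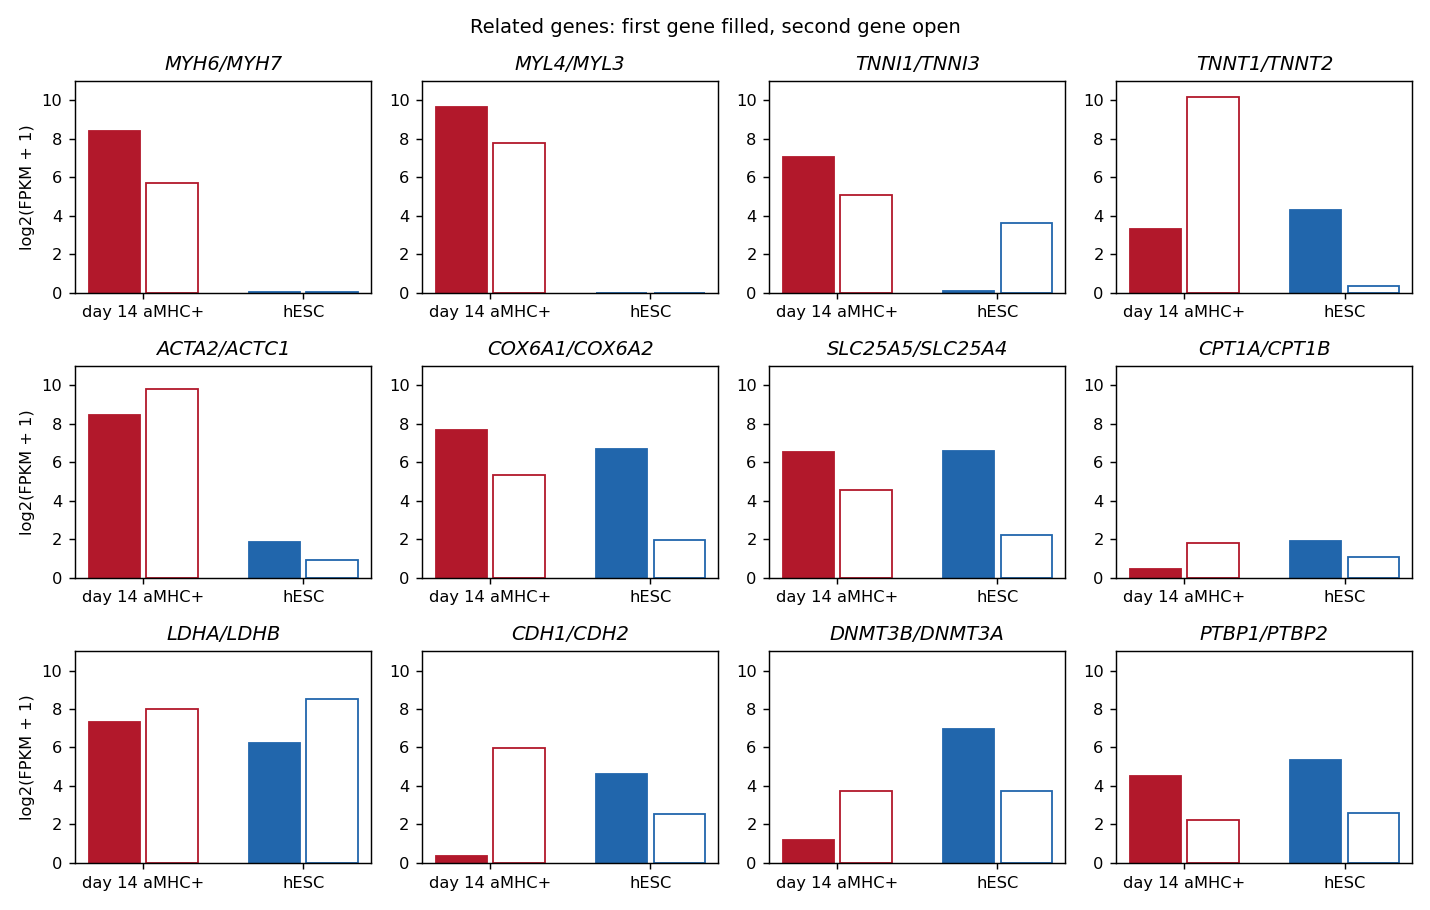
Levels as log2(FPKM + 1) of 12 pairs of related genes in day 14 aMHC+ (red, left) and hESC (blue, right), with the first gene of the title filled and the second open. The order of the pair turned for TNNI1 and TNNI3, TNNT1 and TNNT2, ACTA2 and ACTC1, CPT1A and CPT1B, CDH1 and CDH2, and DNMT3B and DNMT3A.

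Among the myosin and troponin I pairs, forms of the fetal or atrial heart exceeded their ventricular or adult partners in day 14 aMHC+. MYH6 was 6.77 times MYH7 there, MYL4 3.64 times MYL3 and MYL7 1684 times MYL2, on the FPKM scale. TNNI1 was 4.04 times TNNI3, the adult cardiac form. This order was not particular to the fraction. In day 14 aMHC- MYH6 was 13.3 times MYH7, MYL4 12.6 times MYL3 and TNNI1 9.24 times TNNI3. In day 7 NKX2-5+ the same quotients were 36.6, 4.46 and 3.44. MYH6 is also the gene of the sorted reporter. TNNI3 itself was at 32.7 FPKM in day 14 aMHC+ and at 11.4 in hESC, where TNNI1 was at 0.0457. The slow skeletal TNNT1 was far below TNNT2 in day 14 aMHC+ (8.84 and 1133 FPKM) and above it in hESC (18.9 and 0.280). ACTA1 stood at 0.632 times ACTC1 in day 14 aMHC+, and the same genes were at 5.49 and 1189 FPKM in day 7 NKX2-5+.

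Chamber and node markers were mixed, with 8 of 19 called higher. Those high were mostly atrial or shared (MYL7, MYL4, NPPA, MYH6), and ISL1, kept in the sinus node, was at 17.4 FPKM against 0.0324 and the pacemaker channel gene HCN4 at 19.5 against 2.66. The ventricular and slow muscle form MYH7 was also called higher (50.5 against 0.0163 FPKM). SLN, an atrial gene of the list, was only at 2.36 FPKM in day 14 aMHC+ and listed at 0 in hESC. Ventricular factors were low in both libraries. IRX4 was at 0.478 FPKM in day 14 aMHC+ against 0.579 in hESC, and HEY2 at 0.159 against 1.93. The node factors SHOX2, TBX3 and TBX18 were at 0.555, 0.781 and 0.219 FPKM in day 14 aMHC+, and hESC had 0 for each. The atrial factors NR2F1 and NR2F2 were at 1.07 and 4.18 FPKM, with 0 for both in hESC.

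Among cardiac transcription factors, 12 of 26 were called higher and 0 lower (median 2.24, and 0.92 with a pseudocount of 5, below the size of 1 used for lists). HAND2 was at 56.7 FPKM and GATA6 at 22.5 in day 14 aMHC+, and both were listed at 0 in hESC. GATA4, a partner of NKX2-5 on heart promoters, was at 47.6 FPKM against 0.121. SMYD1, a muscle myosin methyltransferase, was at 42.7 against 0.0178, and MYOCD, the coactivator of SRF, at 39.2 against 0.110. SRF itself was called neither way (18.2 against 7.23 FPKM). TBX20, TBX5 and MEF2C lay at 11.1, 9.27 and 9.10 FPKM in day 14 aMHC+ and at 0.102, 0.0238 and 0.119 in hESC. Several were lower in day 14 aMHC+ than at an earlier stage. HAND1 was at 3.56 FPKM in day 14 aMHC+ against 118 in day 3 CD13+/ROR2+, and day 7 NKX2-5+ had 141 FPKM of TBX20 and 46.7 of TBX5.

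Hormone genes of the heart included the second block of very high levels. NPPB (B-type natriuretic peptide) was at 1413 FPKM and NPPA (atrial natriuretic peptide) at 514 in day 14 aMHC+, and both were listed at 0 in hESC. CORIN, the protease that matures these peptides, was at 6.08 FPKM and listed at 0 in hESC, and EDNRA, an endothelin receptor, was at 15.3 against 0.687. These 4 were the members called among 17. The adrenergic receptor gene ADRB1 was listed at 0 in day 14 aMHC+ and at 0.0868 FPKM in hESC. The muscarinic receptor CHRM2 was at 2.05 FPKM against 0.125.

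Calcium handling and electrical genes exceeded the hESC level in part. On the sarcoplasmic reticulum list 6 of 21 were called higher and 1 lower (median 1.06, but 0.95 at equal sums). Phospholamban (PLN), the brake on the calcium pump, was at 46.9 FPKM against 0.0361, and the sodium-calcium exchanger SLC8A1 at 32.5 against 0.410. The release channel RYR2 was at 7.90 FPKM against 0.902, and the calcium pump ATP2A2 at 78.1 against 21.4 (3.65-fold, short of the rule). CASQ2, the cardiac calcium store protein, was at 1.08 FPKM and listed at 0 in hESC. ITPR2, an IP3-gated release channel, was the member called lower (0.689 against 7.54). Of 19 ion channel genes 4 reached 5 FPKM and 3 were called higher, KCNA5 (5.58 FPKM, listed at 0 in hESC), HCN4, and the hERG channel KCNH2 (16.5 against 2.49). KCNJ2, whose channel holds the resting potential of mature heart muscle, was at 0.0481 FPKM against 1.99.

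At the intercalated disc, which couples heart muscle cells, N-cadherin (CDH2, 61.8 against 4.86 FPKM), plakophilin 2 (PKP2, 30.6 against 2.75) and desmoplakin (DSP, 81.6 against 13.2) were called higher. GJA1, the connexin 43 gap junction gene, was called lower, at 6.70 FPKM against 67.6 (10.1-fold). The other 9 of 13 members were called neither way. GJA1 was at 71.5 FPKM in day 3 CD13+/ROR2+, 90.7 in day 3 CD13-/ROR2-, 2.93 in day 7 NKX2-5+, 12.2 in day 7 NKX2-5- and 8.87 in day 14 aMHC-, so it was low in all day 7 and day 14 libraries.

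**Figure D3:**
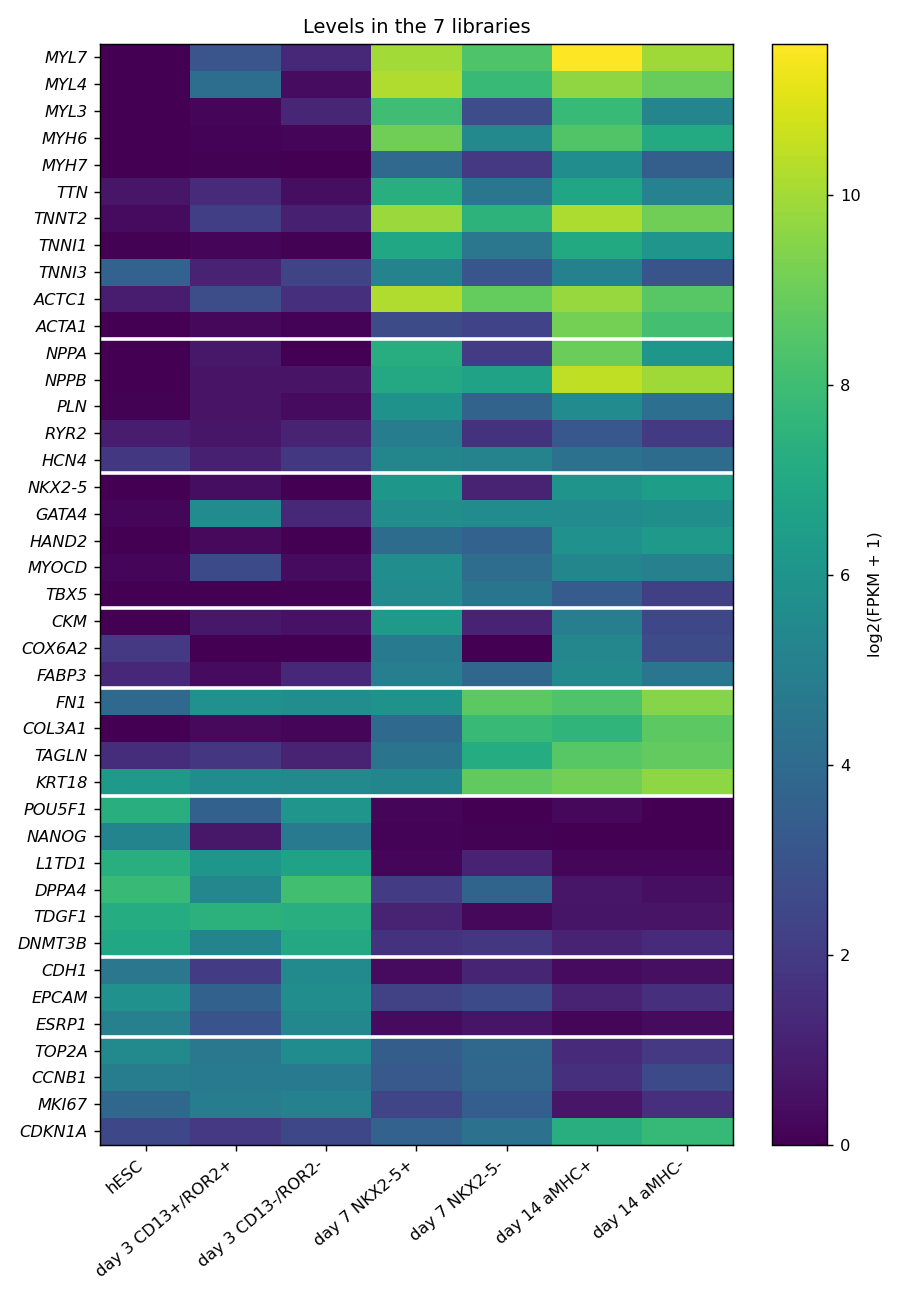
Levels as log2(FPKM + 1) of genes named in the text (rows, in groups by role) in the 7 libraries (columns, by day). Contractile and hormone genes are mostly bright in the day 7 NKX2-5+ and day 14 columns, ACTA1 in the day 14 columns. Several are dimmer in day 7 NKX2-5-, such as NPPA (3.07 FPKM against 146 in day 7 NKX2-5+) and MYL3 (5.73 against 262). Pluripotency genes are bright in hESC and, for most, day 3.

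Enzymes of muscle energy supply were higher in day 14 aMHC+. On the muscle energy list 8 of 15 were called higher and 0 lower (median 2.32). Creatine kinase CKM was at 29.9 FPKM and listed at 0 in hESC, the muscle enolase ENO3 was at 76.3 against 3.72 (20.5-fold) and COX6A2, the muscle subunit of cytochrome c oxidase, at 40.2 against 2.85 (14.1-fold). Myoglobin (MB) was at 16.1 FPKM against 0.827, and the adenine nucleotide carrier SLC25A4 at 22.6 against 3.73. The general forms had higher levels than the muscle forms in day 14 aMHC+, COX6A1 at 206 FPKM and SLC25A5 at 91.9, and were at 103 and 94.8 FPKM in hESC.

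Citric acid cycle and respiratory chain genes were higher in day 14 aMHC+ in 21 of 25 cases, but by small amounts. Their median log2 ratio was 0.76, and 1 was called, the mitochondrial dehydrogenase IDH2 (42.2 against 7.48 FPKM). COX5B was at 139 FPKM against 41.0 (3.38-fold) and citrate synthase (CS) at 32.3 against 22.4. Glycolysis genes had a similar median of 0.90 and 3 of 20 called higher. That is 15%, against 4% of the citric acid cycle and respiratory chain list and 8.28% of the 6279 genes. The 3 glycolysis genes were the lactate exporter SLC16A3 (29.7 against 0.585 FPKM, 50.8-fold), the kinase PDK1 that holds pyruvate back from mitochondria (28.4 against 2.49) and PFKP (70.4 against 13.4).

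Most fatty acid genes were too low to be called. Of 19, 6 reached 5 FPKM in either library, and the median log2 ratio of all 19 was 0.44. Only FABP3, the heart fatty acid binding protein gene, was called, at 43.9 FPKM against 1.46 (30.1-fold). The genes given next were under 5 FPKM in both libraries and could not be called at any ratio. CD36, the main fatty acid importer of adult heart, was at 0.0180 FPKM against 0.149, and LPL was listed at 0 in day 14 aMHC+ and at 0.964 in hESC. For carnitine palmitoyltransferase, the gate of mitochondrial oxidation, the general form CPT1A was at 0.373 FPKM against 2.77, which is 0.149 times the muscle form CPT1B in day 14 aMHC+ and 2.44 times in hESC.

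**Figure D4:**
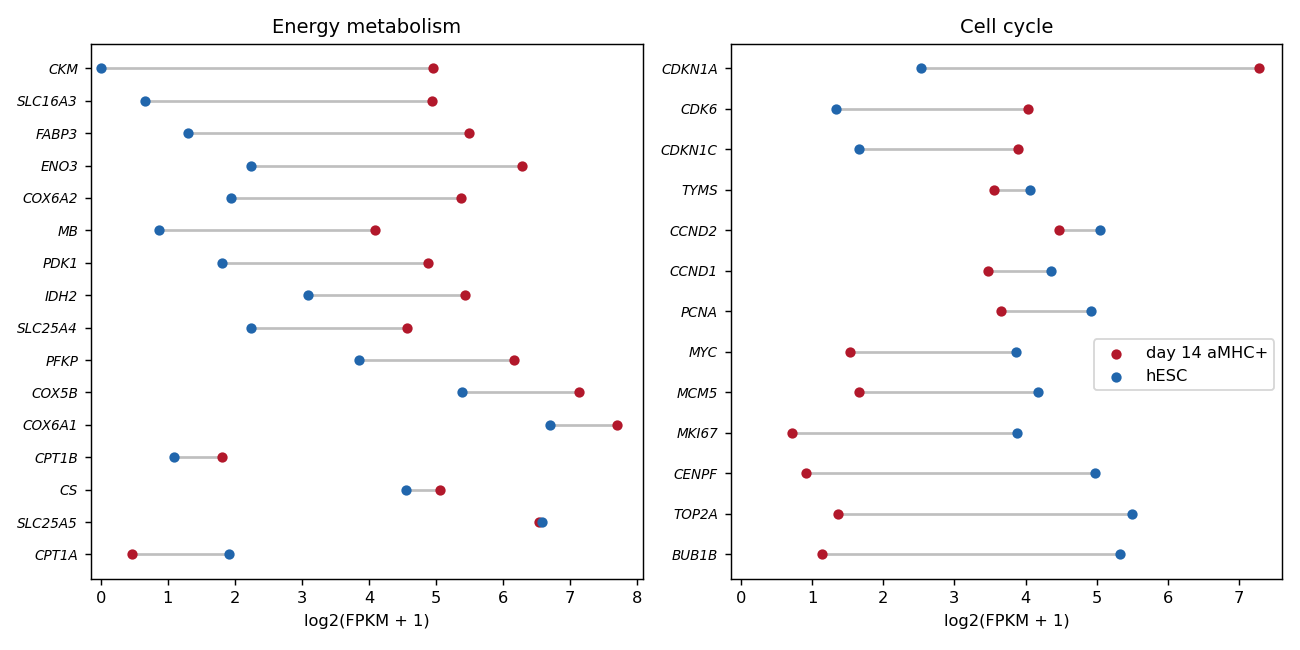
Levels as log2(FPKM + 1) in day 14 aMHC+ (red) and hESC (blue) of the energy genes (left) and cell cycle genes (right) named in the text, sorted by their log2 ratio. The mitosis and replication genes drawn all lie to the left of their hESC level, and among the cell cycle genes CDKN1A has the widest gap in the other direction.

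Pluripotency genes had the opposite direction. Of 21, 18 were called lower and 0 higher, with a median log2 ratio of -4.06, and the list held 0.00876% of the FPKM sum in day 14 aMHC+ against 0.738% in hESC. DPPA4, a chromatin protein gene of pluripotent and germ cells, was at 0.622 FPKM against 229, and TDGF1, the NODAL co-receptor, at 0.563 against 145. NANOG was listed at 0 in day 14 aMHC+ against 36.5 FPKM in hESC, and SOX2 was at 0.105 against 26.3. The 3 members not called were under 5 FPKM in hESC, TERT (0.909), UTF1 (4.24) and FOXD3 (4.68), all listed at 0 in day 14 aMHC+. Reads of POU5F1 and TDGF1 can be shared with their pseudogenes.

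A few pluripotency genes kept a low level. TERF1, a telomere protein gene, was at 5.27 FPKM against 103 (19.6-fold lower), LIN28B at 3.82 against 22.02 and LIN28A, which blocks let-7 microRNA maturation, at 3.02 against 95.2 (31.5-fold lower). The DNA methyltransferase DNMT3B was at 1.24 FPKM against 123, while DNMT3A was alike in both (12.6 against 12.5). DNMT3A was thus the higher of the pair in day 14 aMHC+, while DNMT3B was 9.84 times DNMT3A in hESC. None of 6 genes on the DNA methylation list, which holds DNMT3A but not DNMT3B, was called.

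The libraries between the ends differed in which of these genes were still high. TDGF1 was at 145 FPKM in hESC, 171 in day 3 CD13+/ROR2+, 1.25 in day 7 NKX2-5+ and 0.563 in day 14 aMHC+. NANOG took the same libraries at 36.5, 0.660, 0.0673 and 0 FPKM, and L1TD1 at 152, 67.5, 0.169 and 0.105. TDGF1 was therefore still at its hESC level in the day 3 mesoderm fraction, where NANOG was already low. These fractions differ in sort as well as in day and are not 1 time course of the same cells.

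Some signalling genes of the pluripotent state were lower. Of 22 FGF and NODAL pathway genes, 5 were called lower, 0 higher and 17 neither way (median -0.82, or -1.0047 at equal sums). LEFTY1, a NODAL antagonist and target, was at 0.627 FPKM against 39.1 and SPRY4, a feedback gene of FGF signalling, at 12.4 against 66.7. FGF2 itself was at 0.499 FPKM against 5.33, ETV4 at 1.55 against 17.4, and FGFR4 was listed at 0 against 5.87 in hESC. On the WNT and BMP list 9 of 20 were called higher and 1 lower (median 1.68, or 0.66 with a pseudocount of 5). BMP2 (17.6 against 0.106 FPKM), BMP4 (23.4 against 1.17) and the BMP response gene ID1 (247 against 20.7) were higher, and the secreted WNT modulator SFRP2 lower (0.254 against 99.2, 391-fold). The WNT target AXIN2 was at 1.77 FPKM against 2.61. ID1 was at 7.40 FPKM in day 7 NKX2-5+, below its level at either end.

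Cell division genes were low in day 14 aMHC+. Of 20 mitosis genes, 17 were called lower and 0 higher (median -3.16), and all 20 had a lower level than in hESC. TOP2A was at 1.57 FPKM against 44.0 (28.1-fold lower), the checkpoint kinase BUB1B at 1.19 against 39.2 (32.9-fold), the centromere protein CENPF at 0.876 against 30.4 (34.7-fold) and the proliferation marker MKI67 at 0.641 against 13.7 (21.4-fold). Replication genes were lower by less, with 6 of 20 called lower (median -1.72). MCM5 was at 2.16 FPKM against 17.1 (7.90-fold), but PCNA at 11.6 against 29.3 and TYMS at 10.8 against 15.7. The summed level of the mitosis genes was 466 FPKM in hESC, 120 in day 7 NKX2-5+ and 35.7 in day 14 aMHC+.

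Cell cycle regulators had no common direction (3 of 18 called higher, 1 lower, median 0.03). CDKN1A, which encodes the cyclin-dependent kinase inhibitor p21, was at 155 FPKM against 4.75 (32.7-fold). CDKN1C was at 13.8 FPKM against 2.17 and the kinase gene CDK6 at 15.4 against 1.52. MYC was the member called lower (1.88 against 13.6 FPKM). Cyclin D genes were called neither way, CCND2 at 21.1 FPKM against 31.9 and CCND1 at 10.1 against 19.4. CDKN1A was at 11.4 FPKM in day 7 NKX2-5+ and 215 in day 14 aMHC-, so the high level belonged to both day 14 libraries.

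**Figure D5:**
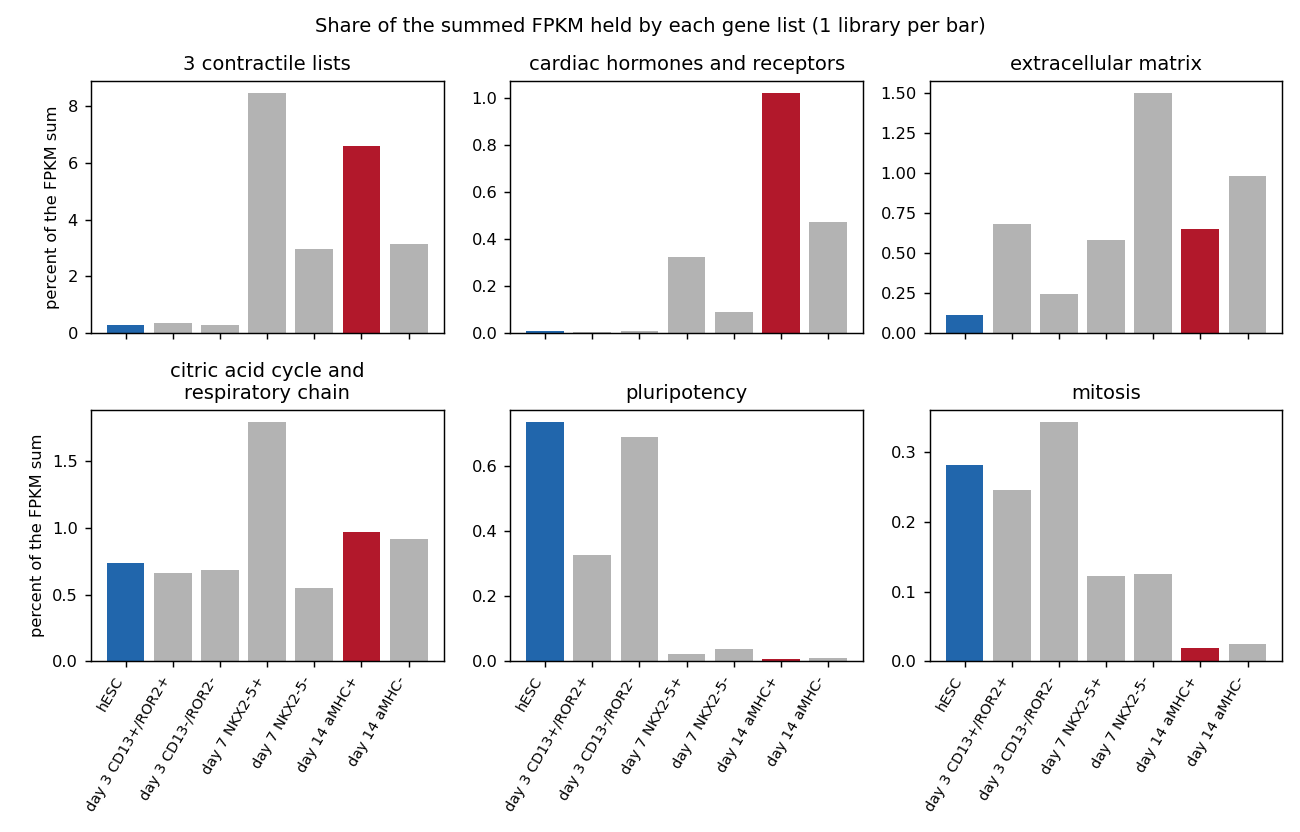
Percent of the FPKM sum (small RNA and histone symbols left out) held by 6 gene lists in each library, by day, with hESC in blue and day 14 aMHC+ in red. The contractile share was 6.62% in day 14 aMHC+ and 8.47% in day 7 NKX2-5+, and the pluripotency share 0.738% in hESC.

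Epithelial junction genes were lower, and keratins higher. Of 18 genes on the epithelial list 7 were called lower and 2 higher (median -2.22). E-cadherin (CDH1) was at 0.261 FPKM against 23.2 (88.8-fold lower), EPCAM at 1.16 against 57.1 and the tight junction gene CLDN7 at 0.0465 against 17.6. The 2 members called higher were KRT8 (389 against 18.8 FPKM) and KRT18 (560 against 73.3), the simple epithelial keratins, which early heart muscle also makes. CLDN6 stayed at 37.6 FPKM against 52.3. With CDH2 above, the cadherins were in opposite order, CDH2 far above CDH1 in day 14 aMHC+ and CDH1 4.77 times CDH2 in hESC. ESRP1, the splicing factor of epithelial cells, was at 0.129 FPKM against 31.8, whereas the muscle splicing regulator RBM24 was at 15.5 against 0.209 and RBM20, which splices titin, at 3.71 against 0.0554 (below the 5 FPKM minimum). The mesenchymal list had a median of 1.14 with 2 of 10 called, vimentin (VIM, 276 against 10.5 FPKM) and CDH11 (21.4 against 0.640).

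Matrix genes were prominent for a fraction sorted as heart muscle. Of 25, 10 were called higher and 0 lower (median 1.504), and 24 had the higher level in day 14 aMHC+. Fibronectin (FN1) was at 338 FPKM against 14.6 (23.1-fold), COL3A1 at 188 and listed at 0 in hESC, COL1A1 at 130 against 4.49 and COL2A1, the cartilage collagen, at 43.7 against 0.769. IGF2, a fetal growth factor gene, was at 254 FPKM against 0.282 and the imprinted DLK1 at 41.2 against 0.401. Both are on the list of imprinted growth regulators, of which 3 of 9 were called higher and 6 neither way (median 0.32). FN1, COL3A1 and COL1A1 were higher still in day 14 aMHC-, at 716, 409 and 256 FPKM.

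Markers of other cell types were read beside these values, since the matrix genes are also made by fibroblasts. In bulk RNA, fewer cells of a type and less RNA per cell cannot be told apart. Of 12 fibroblast markers, 5 were called higher and 1 lower, and their summed level was 378 FPKM in day 14 aMHC+ against 95.0 in hESC. Collagens made up most of it in day 14 aMHC+, and THY1 in hESC. Outside the collagens POSTN (16.9 against 0.433 FPKM), PDGFRA (6.68 against 0.478) and LUM (5.51, listed at 0 in hESC) were called, decorin (DCN) was at 1.97 FPKM and listed at 0 in hESC, and THY1, also a stem cell surface marker, was lower (1.85 against 83.6). Smooth muscle markers, many of them made by early heart muscle too, were called higher in 6 of 8 cases, with a sum of 901 FPKM against 24.4. TAGLN was at 383 FPKM against 1.89, ACTA2 at 348 against 2.57 and MYH11, the most specific of the list, at 12.2 against 0.125. The part of either cell type in the matrix levels was not tested.

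Lists of the remaining lineages had few called members. No blood marker (0 of 14) and no hepatic or visceral endoderm marker (0 of 15) reached 5 FPKM in either library, with sums of 3.27 and 5.14 FPKM in day 14 aMHC+ against 0.280 and 1.04 in hESC, and 9 and 7 members listed at 0 in day 14 aMHC+. Some genes known from blood but not on that list, chosen after their values were seen, were called higher. The globin gene HBD was at 19.1 FPKM in day 14 aMHC+ and listed at 0 in hESC, with 26.9 in day 14 aMHC-. LMO2, a blood and endothelial transcription cofactor gene, was at 26.4 FPKM against 2.46, and the platelet gene GP1BB was at 6.75 and listed at 0 in hESC. Endothelial markers summed to 14.1 FPKM against 27.4, with 1 of 14 called lower (KDR, 1.11 against 13.3) and PLVAP, ROBO4, CLDN5 and PECAM1 listed at 0 in day 14 aMHC+. Epicardial markers summed to 144 FPKM against 16.4, mostly through KRT19, the 1 of 9 called (133 against 15.4 FPKM), a keratin that many epithelia make, while WT1 and TCF21 were at 1.49 and 0.858 FPKM against 0 and 0.0823. Neuroectoderm markers summed to 74.1 FPKM against 37.6, and among the 12 nestin (NES, 48.6 against 5.13) was called higher and ZIC2 (listed at 0 against 10.8) lower. On the skeletal muscle list CKM, which heart shares, was the 1 of 12 called, and MYOD1, MYOG, MYF5 and MYF6 were listed at 0 in day 14 aMHC+.

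Beyond the lists, the genes with the widest ratios held unlike functions. SST, the peptide hormone somatostatin, was at 278 FPKM in day 14 aMHC+ and listed at 0 in hESC. It was at 0.872 FPKM in day 7 NKX2-5+ and 394 in day 14 aMHC-, so that it was high in both day 14 fractions and near 0 in the rest. IGFBP7, a secreted binding protein of insulin-like growth factors, was at 158 FPKM against 0.405 and MYL9, a smooth muscle and nonmuscle light chain, at 471 against 4.27 (111-fold). At the other end, the metallothioneins MT1X, MT1H and MT1G, which bind zinc and copper, were at 0.271, 0 and 0 FPKM in day 14 aMHC+ against 146, 45.0 and 37.6 in hESC. MT1G was listed at 0 in all libraries but hESC, and reads of these near-identical genes can be shared. The noncoding stem cell transcript ESRG was at 0.127 FPKM against 103, PMAIP1, the p53-responsive death gene NOXA, at 1.01 against 87.5 (86.4-fold lower), and the secretoglobin SCGB3A2 at 0.403 against 65.1.

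Small heat shock proteins and immediate early genes were also higher. HSPB1, an actin-protecting chaperone, was at 624 FPKM against 45.9 (13.6-fold), and 4 of 6 members were called higher (median 2.94). Of 13 immediate early genes 6 were called higher and 0 lower (median 1.33), with EGR1 at 31.4 FPKM against 2.16 and FOS at 15.6 against 1.79. The labels say that samples were sorted 2 times before RNA was made, and the part of handling in these levels was not tested. Housekeeping genes were called in 0 of 13 cases, with a median of 0.33 and a spread from TFRC (11.6 against 24.2 FPKM) to B2M (22.2 against 8.57).

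The genes of the comparison were placed on the other libraries by their levels. Of the 520 genes called higher, 173 were at 5 FPKM or more in day 3 CD13+/ROR2+ and 113 in day 3 CD13-/ROR2-. On day 7 there were 326 in NKX2-5+ and 360 in NKX2-5-, and in day 14 aMHC- 477. Of the 385 called lower, 217 and 307 reached that level in the day 3 CD13+/ROR2+ and CD13-/ROR2- libraries, 60 and 110 in day 7 NKX2-5+ and NKX2-5-, and 53 in day 14 aMHC-. The counts in day 14 aMHC+ and hESC are set by the choice of the genes and are not read. Among the libraries counted, the FPKM sum runs from 98815 in day 7 NKX2-5+ to 228747 in day 14 aMHC-. A cut at 5 FPKM is therefore not alike in each. The share of all genes at 5 FPKM was not computed, so the counts cannot be compared between libraries. At 1 FPKM or more there were 9637 genes in day 7 NKX2-5+ and 10747 in NKX2-5-. Some contractile genes were lower in day 14 aMHC+ than in day 7 NKX2-5+, with MYH6 at 342 FPKM against 531 and MYL4 at 808 against 1169. The FPKM sum was 192007 in day 14 aMHC+ and 98815 in day 7 NKX2-5+, and the 3 contractile lists were higher in day 14 aMHC+ by summed FPKM (12702 against 8371) and lower by share of the sum (6.62% against 8.47%). Other genes were far higher in day 14 aMHC+, with ACTA1 at 570 FPKM against 5.49 in day 7 NKX2-5+, NPPB at 1413 against 125 and TAGLN at 383 against 21.1.

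The day 14 aMHC- library, sorted as NKX2-5+ but without the reporter of MYH6, stood close to day 14 aMHC+. The MYH6 transcript was not absent from it, at 136 FPKM against 342 in day 14 aMHC+. MYL7 was at 980 FPKM in aMHC- and TNNT2 at 535. Of 5615 genes of at least 5 FPKM in either fraction, 11 were called higher in day 14 aMHC+ and 0 lower. Of the 11, 7 are among the 520 genes higher than in hESC, a call that 8.28% of 6279 genes had. Both comparisons use the day 14 aMHC+ library, so this overlap was favoured in advance and is not read. Among the 7 were NPPA (514 FPKM in aMHC+ against 68.5 in aMHC-), CRYAB (95.0 against 8.48) and MYL3 (222 against 38.3). MYH7 (50.5 against 10.2), CKM (29.9 against 4.70) and COX6A2 (40.2 against 5.50) were others of the 7. TNNI3 (32.7 against 7.01) is also among the 11, although its ratio to hESC is short of the rule. So are TRDN (13.0 against 2.01), LANCL1 (6.77 against a listed 0) and PCNA-AS1 (7.03 against 1.52e-32). LANCL1 was at 7.37 FPKM in hESC, and the aMHC- values of LANCL1 and PCNA-AS1 can be failed estimates. The pluripotency genes summed to 16.8 FPKM in aMHC+ and 21.1 in aMHC-.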

How the data were processed

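RNA of 7 sorted samples was sequenced as single reads of 50 bases from TruSeq RNA v2 libraries, per the labels' protocols. The authors deposited FPKM per gene symbol, 1 column per library. Per the submitters' processing notes Cufflinks and build hg19 were used; the sources used here give no versions, aligner, annotation or strand handling. Of 23368 rows, 106 blank rows were left out, then 1683 small RNA and histone symbols. The depth of each library beyond the stated minimum is unknown.

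Ratios are log2 of (FPKM + 1), day 14 aMHC+ over hESC, computed with pandas 2.3.3 in Python 3.11.15; the calling function was checked on simulated data. Lists are described by counts and medians over all members, called at a median of 1. One list symbol (PKM, listed here as PKM2) had no row. Folds are plain FPKM quotients. Genes were named by rule: markers, sort genes, up to 6 called members per list, pairs, the 25 widest ratios each way and the 20 highest levels. Further list members, and values in other libraries, were chosen after their values were seen. Lists, pairs and the comparison were chosen with earlier results of these data known. Alternatives were other pseudocounts, minimums, scalings, fold sizes and leaving out genes listed at 0. Promoter windows are from RefSeq (GRCh38.p14), matched by symbol. Values of some list members are not reported here.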

Additional observations from a re-analysis of the deposited data

Results flagged for a closer look

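Small RNA and histone symbols, which the comparison leaves out, held signal above the hESC level. Of 103 such symbols of at least 5 FPKM in day 14 aMHC+ or hESC, 39 were called higher in day 14 aMHC+ and 34 lower. The highest was MIR181A2, at 2036 FPKM in day 14 aMHC+ and listed at 0 in hESC and in day 14 aMHC-. Of the 39, 36 were listed at 0 in hESC, and of the 34, 19 were listed at 0 in day 14 aMHC+. These symbols made up 5.03% of the FPKM sum of day 14 aMHC+ and 33.8% of that of hESC, where MIR612 alone was at 66826 FPKM. Division by a very short length raises such values. Histone genes were called lower in 16 of 41 cases and higher in 1, and their summed FPKM was 798 in day 14 aMHC+ against 2411 in hESC.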

How the results depend on the processing

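No paired analysis was possible because each group has 1 library. No list median past a size of 1 and no named gene changed direction under the alternatives run. This was nearly fixed in advance and is not read as support. Pseudocounts, minimums and fold sizes cannot change the sign of a gene's ratio. Median-ratio scaling and equal sums shift ratios by only 0.02 and -0.21 in log2. The counts of 520 higher and 385 lower became 181 and 99 at a pseudocount of 5, with a minimum of 20 FPKM 208 and 126, a call at 2-fold 1382 and 1144, and a call at 8-fold 224 and 148; these follow from the stricter or looser rule. The pseudocount of 0.1, no minimum, median-ratio scaling (511 and 360), equal sums and leaving out genes listed at 0 (451 and 363) stayed within 1.5 times. With a pseudocount of 5 the medians of these lists were below a size of 1: calcium handling (0.56), cardiac transcription factors (0.92), chamber and node markers (0.56), WNT and BMP (0.66), epithelial (-0.91), mesenchymal (0.57), fibroblast (0.87) and immediate early (0.46). A pseudocount of 0.1 took ion channels (2.07), hormones and receptors (2.37), glycolysis (1.02), imprinted genes (1.27) and epicardial markers (2.39) past it. Equal sums took calcium handling (0.95) and mesenchymal genes (0.97) below 1 and FGF and NODAL genes (-1.0047) past it. Without genes listed at 0 the mesenchymal median was 0.94 and that of imprinted genes 1.25. Of 215 genes named by rule, a pseudocount of 5 or a minimum of 20 FPKM each ended 44 calls, and either scaling 4. Depth limits levels under 1 FPKM, and 1 library per group leaves all differences without a replicate check.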

Other observations

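Among the genes called higher in day 14 aMHC+ than in hESC was an open reading frame symbol that the naming rule leaves out and that was chosen after its values were seen. C1orf105 was at 8.13 FPKM in day 14 aMHC+ and listed at 0 in hESC. It was at 0.799 FPKM in day 14 aMHC-, 0.560 in day 7 NKX2-5+ and 0.0747 in day 7 NKX2-5-, and it is among the 11 genes called higher in day 14 aMHC+ than in aMHC-.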
